A study of Danio rerio with 2 samples.

Results

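The COPII coat genes were followed in 2 RNA sequencing libraries of sorted kdrl:GFP+ cells from zebrafish (Danio rerio) embryos at 44 hours post fertilization. The 10 genes were chosen by name: sar1b, sec23a, sec23b, sec24a, sec24b, sec24c and sec24d for the inner coat, and sec13, sec31a and sec31b for the outer coat. Each name matched 1 Ensembl gene, so all 10 were found among the 21699 genes listed in either library. All 10 also belonged to the 8641 genes that reached both 5 FPKM and 20 expected counts in 1 library or more, the limits on low values used here. The 10 reached these limits in both libraries, but other genes can pass through only the library where they are higher. FPKM is the number of fragments per kilobase of gene length, scaled to the assigned fragments of the library, and an expected count is the number of fragments assigned to a gene, including shares of fragments that match several genes.

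Both libraries came from crosses of fish heterozygous for tsu3994, an allele of gbf1, that carried the Tg(kdrl:GFP) transgene. GBF1 activates ARF GTPases at the Golgi. One library was made from embryos of normal morphology, called siblings here, and 1 from embryos with the mutant morphology, so embryos were grouped by their appearance. Cells were sorted on fluorescence driven by the kdrl promoter, which is active in endothelial cells. The number of embryos behind each library, their genotypes one by one and the nature of the lesion are not given in the labels. With 1 library per group there are no replicates, so each difference compares these 2 libraries and no p-value was computed.

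COPII vesicles carry newly made secreted and membrane proteins from the endoplasmic reticulum (ER) to the Golgi. The GTPase SAR1 inserts into the ER membrane and recruits a SEC23-SEC24 dimer, which forms the inner coat. SEC24 binds the cargo, SEC23 stimulates SAR1 to hydrolyse GTP, and a SEC13-SEC31 cage assembles over them as the outer coat. Vertebrates have several paralogs of SEC23, SEC24 and SEC31. The SEC24 paralogs form an A/B and a C/D subclass with partly different cargo. In zebrafish, loss of sec23a (the crusher mutant) or sec24d (bulldog) impairs collagen secretion and malforms the craniofacial cartilage.

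The libraries held 5657525 expected counts for the siblings and 6169373 for the mutants. gbf1 was at 3.44 FPKM among siblings and 6.13 FPKM among mutants, which does not check the genotype. Sorted cells were not endothelial alone. Over all genes past the limits above, 7.72% were at least 2-fold higher in the mutant library and 1.05% lower. Of 16 pan-endothelial markers past the limits, 13 were higher, and the summed level of all 18 listed was 83.0 and 295 FPKM. Among them, sox18 was at 10.01 and 60.5 FPKM, egfl7 at 15.4 and 44.7 and fli1 at 7.55 and 39.1. Several others, such as cdh5 at 1.96 FPKM among siblings, passed the limits through the mutant library alone. Without the limits, 14 of 18 were higher. The summed level of mural and fibroblast markers was 262 and 369 FPKM, with 5 of 9 at least 2-fold higher. Of the 5, pdgfra, twist1b and foxc1 passed the limits through the mutant library alone. Taking all listed genes, 6 of 12 were higher. The most abundant, col1a1a, was at 95.1 and 104 FPKM. Skeletal muscle markers summed to 962 and 270 FPKM, with 12 of 13 at least 2-fold lower, and epidermal markers to 1060 and 635 FPKM, with 5 of 9 lower. Erythroid markers summed to 338979 and 257723 FPKM, and none of 11 differed 2-fold. Cartilage, notochord and liver, pancreas and yolk markers differed less in sum, at 172 and 199, 65.7 and 69.9, and 41.9 and 51.9 FPKM. Hatching gland markers were at 56.4 and 101 FPKM, and cd63 held 46.7 and 93.4 of that. Markers listed at 0 in the sibling library were matn1 and acta2, the apolipoprotein genes apob and apobb.1, ctslb and 1 of 2 genes named slc4a1. In the mutant library these were low too, from 0.06 FPKM for apob and slc4a1 to 0.63 for ctslb. ucmaa was at 0.31 FPKM in the sibling library and at 0 in the mutant library. The part of these cell types in the values below was not tested, and in bulk RNA fewer cells of a type and less RNA per cell cannot be told apart.

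In the mutant library, 2 COPII coat genes stood well above the rest of the coat, with sec24d of the inner coat at 4.80 times and sec31a of the outer coat at 4.19 times their sibling FPKM. The log2 fold of FPKM + 1, mutant against sibling, was at least 1 for these 2 of 10 genes and at most -1 for none. Across all 8641 genes, 7.72% were higher and 1.05% lower by the same rule. A count ratio per library total of at least 2 was likewise reached by these 2 coat genes, against 9.58% of all genes. The median log2 fold of the 10 genes was 0.53, against 0.27 over all genes. Most genes thus stood somewhat higher in the mutant library, and log2 folds with 0.27 taken away are called centred below. Centred, 8 of the 10 coat genes lay above the median gene and 2 below, and the same 2 passed 2-fold, against 3.7% of all genes.

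**Figure D1:**
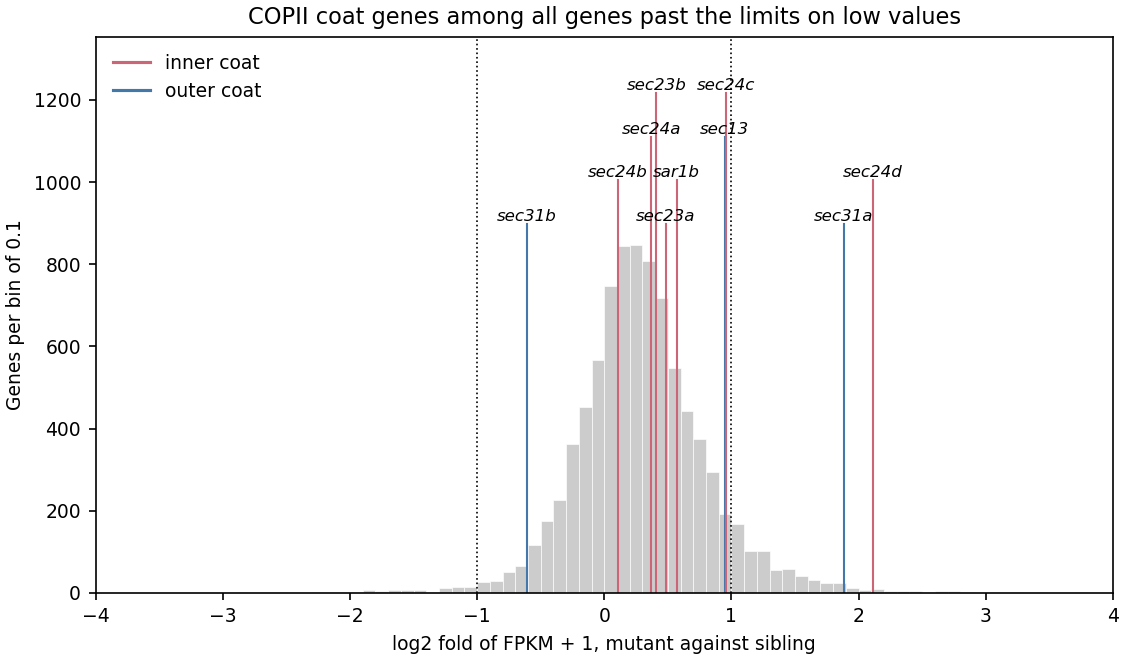
Histogram of the log2 fold of FPKM + 1, mutant against sibling, for the 8641 genes past the limits on low values (grey, bins of 0.1; 2 genes lie outside the axis), with a line for each COPII coat gene and dotted lines at -1 and 1. Of the lines, sec24d at 2.11 and sec31a at 1.88 stand in the right tail, sec24c and sec13 lie just under 1, and sec31b at -0.61 lies in the left flank.

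The levels of the coat genes differed among themselves before any comparison between libraries. sar1b, the GTPase that starts coat assembly (ENSDARG00000103403), was the highest of the 10 in the sibling library at 39.97 FPKM, followed by sec24a at 32.6 and sec13 at 30.6. The intervals quoted with levels are 95% Poisson intervals of the expected count on the FPKM scale, and they overlapped for sec24a and sec13 (30.3 to 35.0 and 27.0 to 34.6). sec23b followed at 21.6 FPKM, apart from its neighbours. sec24c, sec31b, sec24b and sec23a lay together between 10.8 and 11.95 FPKM, with overlapping intervals. sec24d at 7.02 (5.94 to 8.24) and sec31a at 5.45 (4.58 to 6.44) were the lowest of the 10 and overlapped each other. All intervals here cover counting error alone.

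In the mutant library the order differed from top to bottom. sec13, which had overlapped sec24a among siblings, was level with sar1b, at 59.98 FPKM (55.1 to 65.2) and 59.85 FPKM, and its interval lay above that of sec24a at 42.5. sec24d came next at 33.7 FPKM (31.4 to 36.2), a level that overlapped that of sec23b at 29.1. sec31a was at 22.8 FPKM (21.1 to 24.7), beside sec24c at 24.2. sec23a at 15.4, sec24b at 11.96 and sec31b at 6.93 closed the list, each apart from the next. Among the tested genes, the level of sec24d moved from percentile 33.9 in the sibling to percentile 80.3 in the mutant library, and that of sec31a from 21.2 to 70.8.

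**Figure D2:**
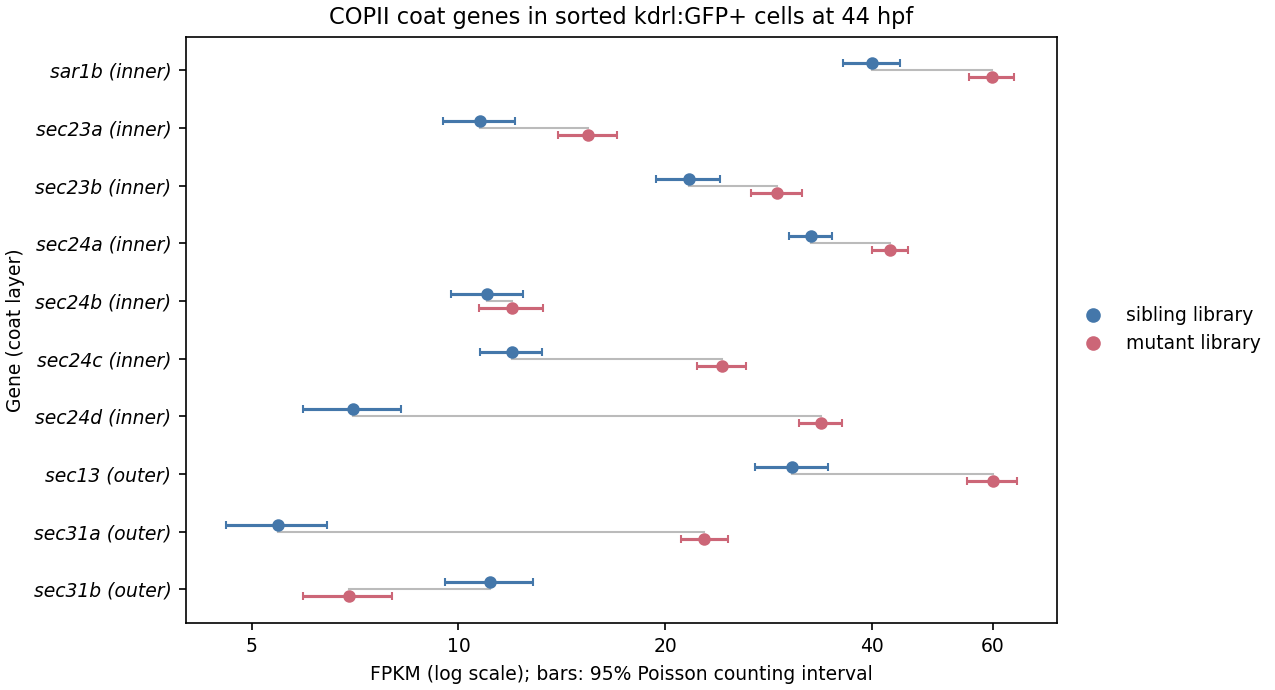
FPKM of the 10 COPII coat genes on a log axis in the sibling (blue) and mutant (red) library, with 95% Poisson counting intervals as bars, inner coat genes above outer coat genes. The longest lines between libraries belong to sec24d, from 7.02 to 33.7, and sec31a, from 5.45 to 22.8, while the intervals of sec24b overlap.

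sar1b encodes the SAR1 paralog whose loss in humans causes chylomicron retention disease, a defect of lipoprotein export. It had 422 expected counts among siblings and 700 among mutants. The ratio of expected counts, each per library total, was 1.52 (95% exact conditional binomial interval 1.35 to 1.72), with a log2 fold of 0.57 and 0.30 centred. Of the other SAR1 genes, the name sar1aa had no match. sar1ab was at 7.41 and 7.78 FPKM, with 45 and 61 counts and a ratio of 1.24 whose interval held 1 (0.83 to 1.87). sar1b thus stood 5.39 times as high per length as sar1ab among siblings and 7.69 times as high among mutants. This comparison takes in the listed length of sar1ab, 1068 bases in the sibling table and 1262 in the other. By counts the ratio of sar1b was 1.23 times that of sar1ab, with an interval that held 1 (0.80 to 1.87).

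sec23a and sec23b encode the GTPase-activating subunit, and loss of SEC23B causes a congenital dyserythropoietic anaemia in humans. sec23a (ENSDARG00000104230) was at 10.8 and 15.4 FPKM, with a count ratio of 1.39 (1.19 to 1.62). sec23b (ENSDARG00000019360) was at 21.6 and 29.1 FPKM, with a count ratio of 1.46 (1.28 to 1.68). Per library total both were thus higher in the mutant library beyond counting error, by less than 2-fold. Their log2 folds of 0.48 and 0.41 were 0.21 and 0.14 when centred, and the interval of sec23a took in the count ratio of the median gene, 1.21. sec23a made up 33.2% of the summed FPKM of the pair among siblings and 34.7% among mutants. The odds of a SEC23 fragment belonging to sec23a differed between libraries by a factor of 0.95, with an interval of 0.77 to 1.17.

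The 4 SEC24 genes differed from each other. sec24a (ENSDARG00000104375) was at 32.6 and 42.5 FPKM, with a count ratio of 1.3 (1.19 to 1.43). sec24b (ENSDARG00000071906), needed in the mouse for transport of the planar polarity protein VANGL2, was at 11.0 and 11.96 FPKM, and its count ratio of 1.15 was within counting error of 1 (0.98 to 1.36). Its log2 fold of 0.11 turned to -0.16 when centred, to -0.15 with TMM, to -0.16 with median-of-ratios scaling and to -0.05 without the 10 highest genes. For sec24a the log2 fold was 0.37 and 0.10 centred, so both genes of the A/B subclass lay near the median gene.

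sec24c (ENSDARG00000103516) was at 11.95 and 24.2 FPKM, a log2 fold of 0.96. Its listed length was 5140 bases in the sibling table and 3840 bases in the other, with 5 transcripts in each. Part of this difference in FPKM thus goes with the length. Whether the mix of transcripts differed between the libraries was not tested. Its counts of 359 and 588 had a ratio of 1.5 (1.31 to 1.72), a log2 value of 0.59. Of genes tested in both tables, 15.8% had lengths that differed by more than 10%, and 2 of the 10 coat genes did, sec24c and sec31b.

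sec24d (ENSDARG00000045946) had the largest difference of the coat genes. It was at 7.02 FPKM with 150 expected counts among siblings and at 33.7 FPKM with 760 counts among mutants. The count ratio was 4.65 (3.90 to 5.57) and the log2 fold 2.11, or 1.84 centred, at rank 41 of the 8641 genes. The whole interval lay above 2, as it did for 3.32% of all genes. Its listed lengths of 3665 and 3561 bases were close, and its counts were whole to within 0.005 in both libraries, as for sec24b, sec24c, sec13 and sec31a.

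The make-up of the SEC24 family therefore differed between the libraries. sec24d held 11.2% of summed SEC24 FPKM among siblings and 30.0% among mutants. In counts its share was 9.72% (exact Clopper-Pearson 95% interval 8.29 to 11.3) and 27.4% (25.8 to 29.1), and the odds differed by a factor of 3.51 (2.90 to 4.26). sec24a went from 52.1% to 37.8% and sec24b from 17.6% to 10.6% of FPKM, while sec24c held 19.1% and 21.5%. The share of sec24c turned with the changed listed length, to 23.3% and 21.2% in counts and to 21.4% and 19.0% with each gene at its mean length, and its odds differed by a factor of 0.89 whose interval held 1 (0.76 to 1.03). The C/D subclass together held 30.3% of FPKM among siblings and 51.5% among mutants, and 33.0% and 48.7% of counts. Its counts relative to those of the A/B subclass differed by a factor of 1.93 (1.69 to 2.20). Of the C/D genes, only sec24d had a higher share of counts in the mutant library. Within the C/D pair, sec24d was at 0.59 times the level of sec24c among siblings and at 1.39 times among mutants. Within the A/B pair, sec24a held 74.8% and 78.0%.

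**Figure D3:**
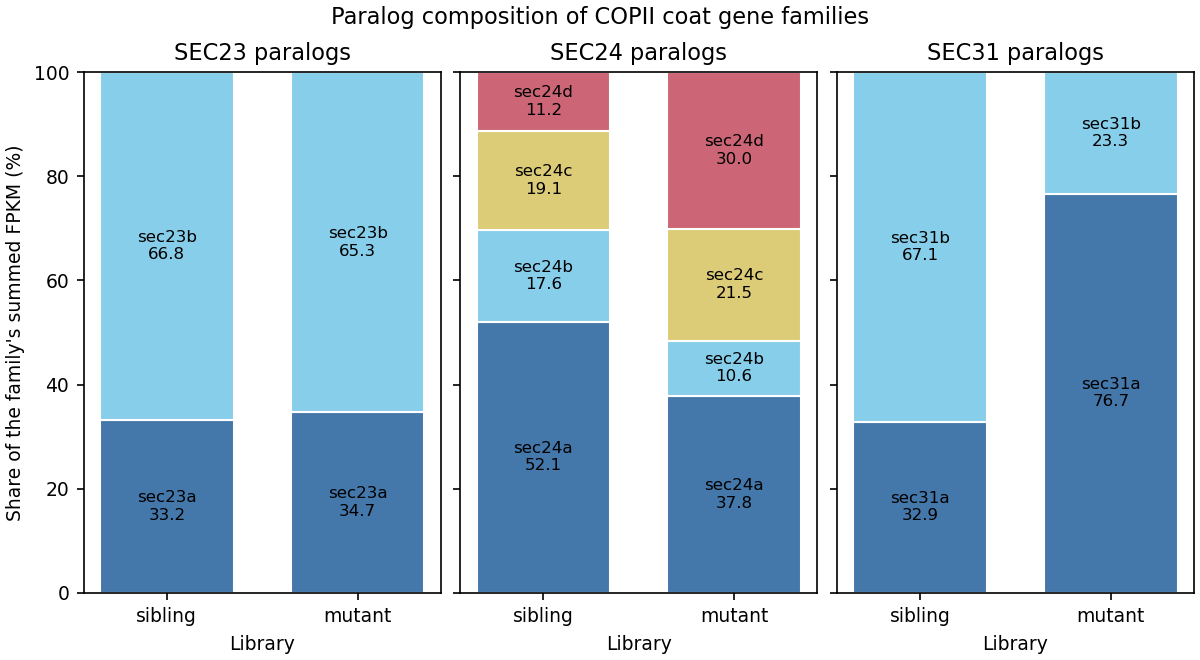
Stacked bars of each paralog's percent of the summed FPKM of its family in the sibling and mutant library, for SEC23, SEC24 and SEC31. The SEC23 bars are nearly alike, sec24d takes 11.2% and 30.0% of SEC24, and sec31a takes 32.9% and 76.7% of SEC31.

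In the outer coat, sec31a and sec31b encode the rod-forming subunit of the cage. sec31a (ENSDARG00000021082) was at 5.45 FPKM with 138 counts among siblings and at 22.8 FPKM with 629 counts among mutants. Its count ratio was 4.18 (3.47 to 5.06) and its log2 fold 1.88, or 1.61 centred, at rank 66 of the 8641 genes. The ratios of sec24d and sec31a did not differ from each other beyond counting error, since one over the other was 1.11 (0.85 to 1.44).

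sec31b (ENSDARG00000002916) went the other way in FPKM, from 11.1 to 6.93, a log2 fold of -0.61, or -0.88 centred. Its counts of 185 and 178 gave a ratio of 0.88 whose interval held 1 (0.71 to 1.09). That interval lay wholly below the count ratio of the median gene, 1.21. The listed length of sec31b was 2865 bases in the sibling table and 4062 bases in the other. Most of the lower FPKM thus goes with the longer listed length, with 4 transcripts in each table, and a different mix of transcripts was not tested. Even so, the pair changed places. sec31a held 32.9% of SEC31 FPKM among siblings and 76.7% among mutants. With both genes at their mean length over the tables the shares were 37.3% and 73.8%, and in counts 42.7% (37.3 to 48.3) and 77.9% (74.9 to 80.8). The odds differed by a factor of 4.73 (3.56 to 6.30).

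sec13 (ENSDARG00000054807) encodes the WD-repeat partner of SEC31 and has a single gene here, with 1 transcript of 1473 bases. It was at 30.6 and 59.98 FPKM, with 259 and 551 counts. The count ratio of 1.95 (1.68 to 2.27) lay just under 2. The log2 fold of 0.95 lay just under 1 and was 0.68 when centred. Relative to the sum of both SEC31 genes, sec13 stood at 1.85 among siblings and 2.02 among mutants in FPKM, a comparison that takes in the changed length of sec31b. In counts the direction turned, since the ratio of sec13 was 0.85 times that of the SEC31 sum, which was 2.29, with an interval that held 1 (0.70 to 1.04).

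By layer, the 7 inner coat genes summed to 135 FPKM among siblings and 217 among mutants, and the 3 outer coat genes to 47.2 and 89.7. The summed counts had ratios of 1.57 (1.5 to 1.65) for the inner and 2.14 (1.94 to 2.36) for the outer coat, and the outer ratio was 1.36 times the inner one (1.22 to 1.52). This difference between layers depended on the measure: the log2 ratio of summed FPKM was 0.93 for the outer and 0.68 for the inner coat, while the mean of the members' log2 folds was 0.74 and 0.72. sec24d held 5.20% of inner coat FPKM in the sibling library but 32.7% of the inner coat's difference, ahead of sar1b at 24.3%. Without sec24d the inner count ratio was 1.38 (1.32 to 1.46). The outer ratio of 2.14 still holds sec31a, so these 2 values are not a like comparison. The other outer genes, sec13 and sec31b, had count ratios of 1.95 and 0.88. In the outer coat, the difference of 42.5 FPKM was made up of 29.4 for sec13, 17.4 for sec31a and -4.18 for sec31b. SEC23 genes stood at 0.52 times the SEC24 genes in summed FPKM among siblings and at 0.40 times among mutants, a comparison that takes in the changed length of sec24c. In summed counts the ratio was 1.43 (1.29 to 1.58) for SEC23 and 1.65 (1.55 to 1.75) for SEC24.

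Over 45 pairs of coat genes, the ratio of their count ratios had an interval that left out 1 for 32 pairs. All 16 pairs that set sec24d or sec31a against one of the other 8 members were among them. These genes were singled out by their high ratios in the same counts, so the pairs only restate those ratios. The intervals are single ones, not widened for the number of pairs. The share of pairs of other genes that would leave out 1 was not computed. The 32 of 45 pairs are therefore not shown to be particular to the coat. By counts, 8 of the 10 genes had an interval above 1, against 46.1% of all genes, and none had one below 1, against 8.99%.

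**Figure D4:**
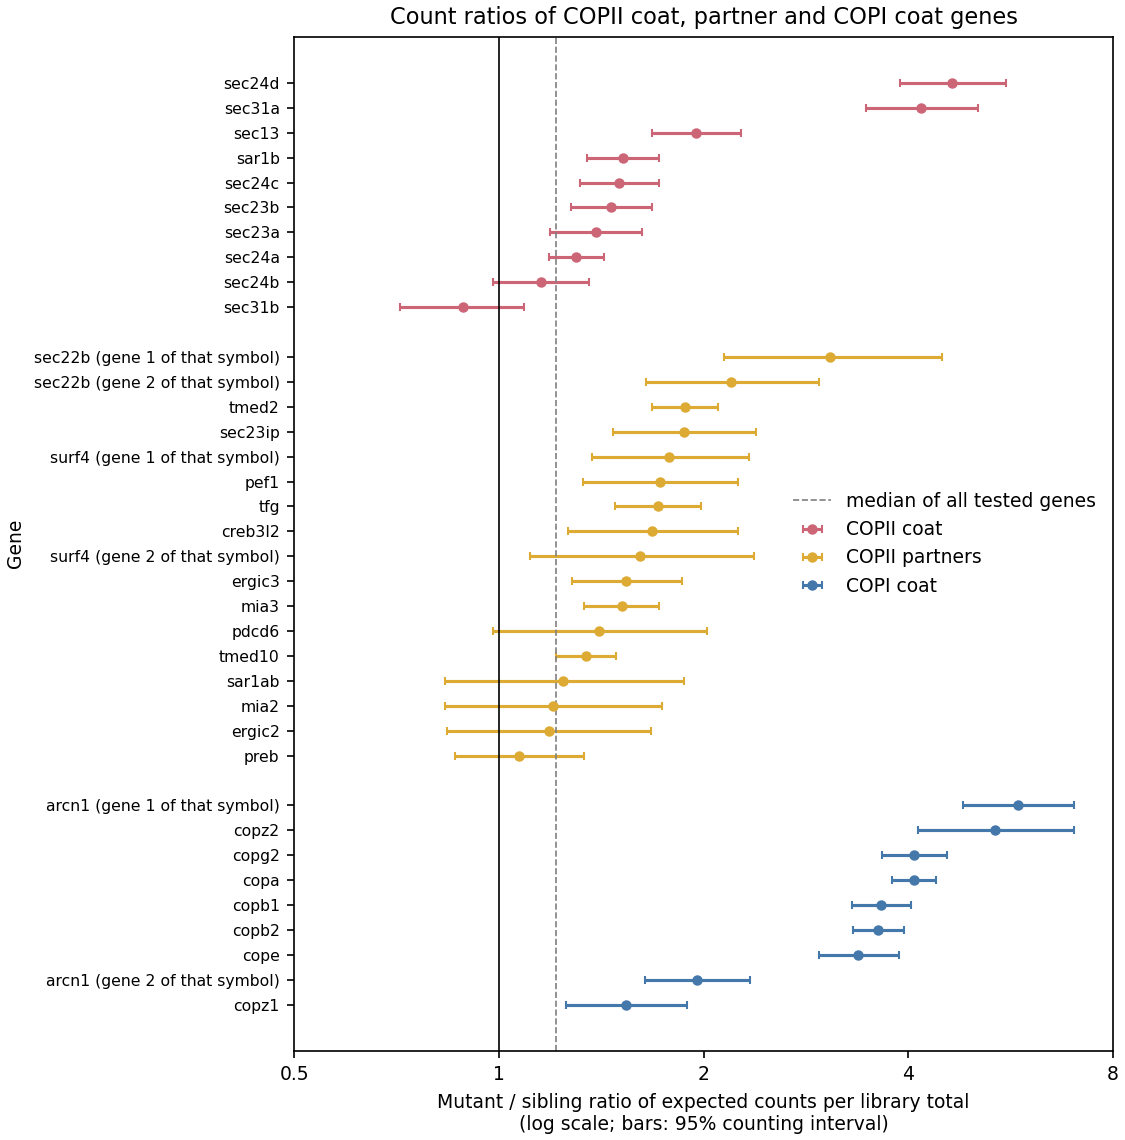
Ratios of expected counts per library total, mutant over sibling, on a log axis with 95% counting intervals, for the COPII coat (red), the COPII partners (yellow) and the COPI coat (blue), with a line at 1 and a dashed line at the median of all tested genes, 1.21. In the COPII coat sec24d and sec31a lie at 4.65 and 4.18, in the range of most COPI genes, and the other 8 lie below 2.

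Proteins that work with the coat were followed through a list of 22 names. The names sec16a and sar1aa had no match, and surf4 matched 2 genes, so the list gave 21 genes. Of these, 17 passed the limits, with a median log2 fold of 0.60. Among the 17, 3 were at least 2-fold higher, against 7.72% of all genes, and none was lower. Centred, 2 of 17 were past 2-fold, against 3.7% of all genes. The 3 were both genes named sec22b, an ER-Golgi SNARE, and creb3l2. The sec22b genes were at 9.88 and 21.3 FPKM (ENSDARG00000030108) and at 5.82 and 16.4 FPKM (ENSDARG00000100435), with count ratios of 2.20 and 3.07. Centred, the first of them was under 2-fold at 0.77 and the second past it at 1.08. creb3l2 encodes a membrane-bound transcription factor that in zebrafish activates sec23a and sec24d, as known from the feelgood mutant. It was at 3.43 and 10.1 FPKM, so it passed the limits through the mutant library alone. Its counts of 77 and 141 had a ratio of only 1.68 (1.26 to 2.25). The FPKM differed by more because the listed lengths were 3855 and 2219 bases. The most abundant partners were the p24 cargo receptors tmed2, at 66.8 and 122 FPKM, and tmed10, at 63.7 and 85.8, followed by the ER exit site protein tfg at 26.8 and 46.3. preb, the exchange factor that loads SAR1 with GTP, was at 15.5 and 16.7 FPKM, with a count ratio of 1.07 (0.86 to 1.33). mia3, the TANGO1 cargo receptor for collagen, was at 12.1 and 17.95 FPKM, with a count ratio of 1.52 (1.33 to 1.72). As a sum of counts, the ratio of the partners was 0.94 times that of the coat (0.89 to 1.01).

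Against other vesicle coats, the median log2 fold of the COPII genes, 0.53, lay between those of COPI and clathrin. Single genes lay outside these 2 medians, with sec31b at -0.61 and sec24b at 0.11 below, and sec24d at 2.11 and sec31a at 1.88 above. The COPI coat returns proteins from the Golgi to the ER. It summed to 221 and 796 FPKM over 9 genes, while copg1 had no match. Of the 9, 8 were at least 2-fold higher, against 7.72% of all genes (7 when centred, against 3.7%). COPI had a median log2 fold of 1.83. Its summed counts had a ratio 2.21 times that of COPII (2.09 to 2.34). Taken alone, sec24d had a ratio 1.25 times that of the COPI sum (1.04 to 1.51), and sec31a one of 1.13 times, with an interval that held 1 (0.93 to 1.37). The clathrin and adaptor genes summed to 1227 and 1182 FPKM over 18 genes, none of which differed 2-fold as reported or centred, with a median log2 fold of 0.25. Among the most abundant of these, a gene named ap2m1 was at 485 and 432 FPKM, clta at 317 and 286 and cltca at 69.2 and 78.4. The COPII count ratio was 1.65 times that of the clathrin list (1.57 to 1.73).

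Set beside the gate, kdrl itself was at 6.38 and 21.3 FPKM, a count ratio of 3.33 (2.86 to 3.89). The ratio of sec24d was 1.39 times that of kdrl (1.1 to 1.77) and that of sec31a 1.25 times, with an interval that held 1 (0.98 to 1.6). sec13 lay below kdrl, at 0.59 times its ratio (0.47 to 0.73). The count ratio of kdrl was near the median of the 16 tested pan-endothelial markers, 3.28, and kdrl is itself among the 16. Several others, such as cdh5 at 1.96 FPKM among siblings, passed the limits through the mutant library alone. This favours higher ratios in that median. The 16 ran from 1.15 for robo4 to 13.1 for myct1, which had only 4 counts among siblings. Between them, sox18 was at 6.02 (4.81 to 7.63), cdh5 at 4.59, clec14a at 4.05, fli1 at 3.75, egfl7 at 2.90 and tie1 at 2.54. sec24d and sec31a thus lay within the range of these markers, but toward its upper end. Only sox18 and myct1 had ratios above that of sec24d, and only these and cdh5 above that of sec31a. The COPII coat as a whole was at 0.51 times the ratio of the summed pan-endothelial counts (0.47 to 0.55). Whether the higher share of endothelial transcripts carried any COPII gene with it was not tested.

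Secreted proteins that depend on COPII, mostly large matrix proteins, were followed through 27 genes, 17 of which passed the limits. Of these, 4 were at least 2-fold higher, against 7.72% of all genes (2 when centred, against 3.7%). None was lower, and the median log2 fold was 0.30. The 4 were a gene named fn1 (2.62 and 11.4 FPKM), the laminin genes lama4 (4.26 and 14.2) and 1 of 2 named lamb1 (2.40 and 6.22), and nid2 (13.8 and 34.3) for fibronectin, laminin chains and nidogen, which are proteins of the extracellular matrix. Of the 4, fn1, lama4 and lamb1 passed the limits through the mutant library alone. Without the limits, 5 of 27 genes were higher. The other lamb1, more abundant, was at 21.8 and 32.8 FPKM, a log2 fold of 0.57, and the other fn1 was at 7.22 and 6.78 FPKM. The most abundant cargo transcripts differed little. col1a1a was at 95.1 and 104 FPKM, a gene named col2a1 at 65.4 and 62.2, and col1a2 at 48.95 and 59.1.

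**Figure D5:**
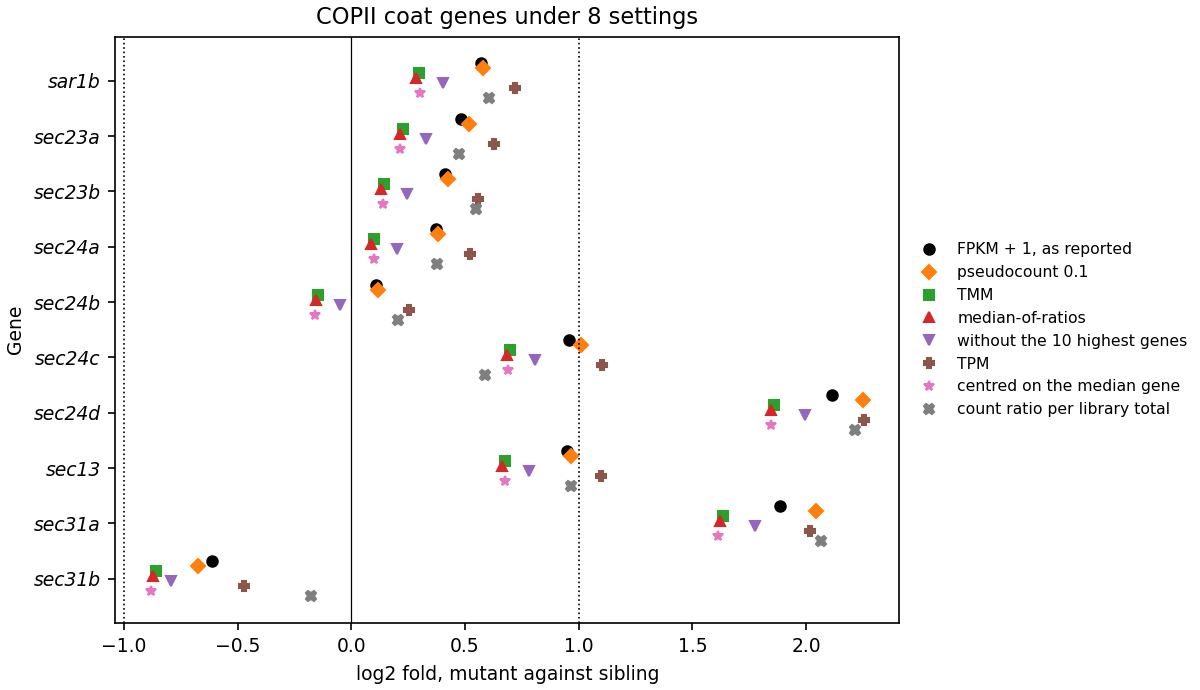
log2 folds of the 10 COPII coat genes, mutant against sibling, under 8 settings that differ in scaling, pseudocount or the use of counts, with dotted lines at -1 and 1. sec24d (1.84 to 2.25) and sec31a (1.61 to 2.06) stay above 1 in all 8, sec24c and sec13 cross 1 in some, and sec24b crosses 0.

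The scaling between libraries moved all genes together. The share of higher genes among those past 2-fold was 88.0% as reported (667 higher and 91 lower), 67.0% with TMM (353 and 174), 66.0% with median-of-ratios scaling (347 and 179), 63.2% centred (320 and 186), 77.6% without the 10 highest genes (495 and 143) and 92.9% in TPM (948 and 72). Among the coat genes, sec24d ranged from 1.84 to 2.25 and sec31a from 1.61 to 2.06 over these settings, the 0.1 pseudocount and the count ratio. sec13 ranged from 0.66 to 1.1 and sec24c from 0.59 to 1.1, so their place relative to 2-fold depended on the setting. The log2 folds of sec23a, sec23b, sec24a and sar1b stayed between 0.09 and 0.72, and that of sec31b between -0.88 and -0.18.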

How the data were processed

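Poly(A) RNA of sorted cells was fragmented and copied with random hexamers, with no strand-marking step, per the labels' protocols. Reads from overlapping genes on opposite strands could therefore not be told apart. Per the submitters' processing notes, the tools were RSEM, Bowtie2, BWA and bcl2fastq 2.16, on GRCz10; their roles are not given. Expected counts are the authors' raw estimates per gene, not normalized. FPKM was computed by the authors with a gene length that the deposited tables list for each library on its own, and libraries were not scaled to each other. A gene missing from one table was set to 0.

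Symbols were looked up by Ensembl ID, and 91.3% of genes had one; list names that did not match were tried without the paralog letter. A gene was called higher or lower at a log2 fold of FPKM + 1 of at least 1 or at most -1. Count ratios carry exact conditional binomial 95% intervals of rounded counts (scipy 1.17.1), and ratios of ratios the exact conditional interval of the odds ratio. These cover counting error only and leave out any variation between embryos or preparations. PCR copies are not independent molecules, so the intervals may be too narrow even for counting error. TMM came from edgeR 4.0.16 and median-of-ratios factors from DESeq2 1.42.0, on rounded expected counts, for scaling alone. The calculations were tested on simulated Poisson counts, with the same gene length in both libraries. This checks the code under the model that the intervals assume. It does not cover variation beyond counting or lengths that differ between libraries. The coat genes were all named, with other list members past 2-fold or most abundant; preb, mia3, sar1ab, kdrl, cd63, the other genes named lamb1 and fn1, the markers at 0 and the genes of 2 added lists were added after their values were seen. The members and lists were chosen with earlier results of these data known.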

Additional observations from a re-analysis of the deposited data

How the results depend on the processing

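No paired analysis was possible because each group had 1 library, and for the same reason no library could be left out. The count of COPII coat genes at least 2-fold higher was 2 as reported, 4 in TPM, where sec13 and sec24c joined, 3 with a pseudocount of 0.1, where sec24c did, and 2 in each of the other settings; none was 2-fold lower in any. Over all genes, the 667 higher and 91 lower became 353 and 174 with TMM, 347 and 179 with median-of-ratios scaling and 320 and 186 centred, while leaving out the 10 highest genes gave 143 lower and a limit of 1 FPKM with no count minimum gave 1205 and 292. In the settings where more coat genes were higher, more of all genes were too. These were 948 higher and 72 lower in TPM, and 883 and 115 with the 0.1 pseudocount. The log2 ratio of the outer coat sum was 0.93 in FPKM, 1.1 in counts and 0.74 as a mean of the members, where sec31b weighs as much as sec13; that of the inner coat was 0.68, 0.65 and 0.72, so the layers were nearly level in the last. In counts without length, the share of sec23a in SEC23 was 44.0% and 42.8% in sibling and mutant, that of sec24d in SEC24 9.72% and 27.4%, and that of sec31a in SEC31 in the sibling 42.7%, since longer genes then weigh more. The direction of these share differences was as reported except for sec23a, and that of sec24c turned too. In counts, the share differences of both lay within counting error of no difference. Depth limits sec31a and sec24d in the sibling library most, at 138 and 150 counts.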

Other observations

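SEC13 also belongs to complexes outside the COPII coat. Lists of those complexes were added after the data were seen. Of 9 genes for the Nup107 subcomplex of the nuclear pore, none differed 2-fold, with a median log2 fold of 0.08, and the count ratio of sec13 was 1.70 times that of their sum (1.45 to 2.0). nup107 was at 15.8 and 17.6 FPKM and nup160 at 23.7 and 32.0. Of the 4 genes for GATOR2, which acts upstream of the kinase mTORC1 in amino acid sensing, 3 passed the limits and none differed 2-fold. Its member mios was at 7.06 and 6.84 FPKM. seh1l, shared by both complexes, was at 20.5 and 11.3 FPKM with a count ratio of 0.98 (0.79 to 1.22). Its FPKM differed by more because its listed lengths were 1410 and 2481 bases. Its log2 fold of -0.80 was -1.07 when centred, so seh1l was 2-fold lower on the centred scale.

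In the RefSeq annotation of GRCz12tu, a later build than that of the tables, sar1b and sec24a are direct neighbours. Their count ratios were 1.52 and 1.3, and one over the other was 1.17 (1.001 to 1.37).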
